A study of Drosophila melanogaster with 2 samples.

Results

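The regions described here are the promoters of long noncoding RNA (lncRNA) genes that lie away from protein-coding promoters. They were chosen by annotation alone. All Ensembl genes of biotype ncRNA whose name starts with lncRNA: were taken on the 6 arms 2L, 2R, 3L, 3R, 4 and X, and a transcription start site (TSS) was kept where every protein-coding TSS was more than 1000 bp away. This left 1607 TSSs of 1518 genes, called distal lncRNA TSSs here, out of 2064 lncRNA TSSs of 1944 genes and 23998 annotated TSSs in all. Of these, 1605 positions were distinct, and 68 genes had more than 1 distal TSS. All 1518 genes were found by symbol in the RefSeq gene table, and none was protein-coding there. The prefix lncRNA: is left off the names below.

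The data are ChIP-seq peaks from whole embryos of Drosophila melanogaster of mixed sex, 6 to 18 h old according to the source name (the separate age entry differs from this). The embryos came from a transgenic line with a stably expressed CG15269 protein fused at its C-terminus to eGFP, and chromatin was recovered through an antibody against GFP per the sample descriptions. The series is 1 group of 2 biological replicates, numbered 2 and 3, with no treated, untagged or other counterpart, so what follows describes places and involves no comparison of conditions. All cell types of the embryo were mixed, 1 line was used, and RefSeq names the CG15269 product only as an uncharacterized protein.

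Many lncRNA genes are transcribed by RNA polymerase II from promoters of their own, and some RNAs act in chromatin or nuclear bodies, some are precursors of small RNAs, and many have no known role. In flies, well-studied examples are the roX RNAs of dosage compensation, the heat-inducible Hsromega and the transposon-silencing locus flam. A promoter of this kind separates binding at a start site from binding at a protein-coding promoter next door.

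Peaks came as 3 lists called on replicate 2, on replicate 3 and on both together. Each held exactly 30000 peaks, with lowest signals of 20.9, 19.1 and 34.6, so weaker sites may be missing from them. A further list held 7029 peaks thresholded by the authors on their irreproducible discovery rate (IDR). A TSS is called occupied where the summit of an IDR peak lay within 500 bp of it. The signal of a peak is the authors' value. Its scale is not stated, and read depth is unknown. Positions are on dm6, counted from 1. All intervals are 95% intervals that cover only counting error, and those of shares are exact (Clopper-Pearson). Sites are not replicates, so shares are given without tests.

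The sequences at 8 summits are shown first, because they belong to the strongest members, to the best known lncRNA genes and to microRNA precursors that the results turn on. Each is 101 bp of the dm6 genome centred on an IDR summit, written 5′ to 3′ on the strand of the lncRNA, and capitals mark runs of 6 or more A or T bases. They are CR46036 (chr3R:17700542-17700642, + strand), the microRNA precursor CR31044 (chr3R:29214399-29214499, +), CR31840 (chr2L:14024042-14024142, −), Hsromega (chr3R:21296287-21296387, +), flam (chrX:21631665-21631765, +), the bantam precursor CR43334 (chr3L:628434-628534, +), the precursor of mir-277 and mir-34 CR43459 (chr3R:10093792-10093892, +) and TS2 (chr2L:3587441-3587541, −).
CR46036: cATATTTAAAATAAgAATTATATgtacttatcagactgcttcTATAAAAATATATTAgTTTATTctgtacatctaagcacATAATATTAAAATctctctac
CR31044: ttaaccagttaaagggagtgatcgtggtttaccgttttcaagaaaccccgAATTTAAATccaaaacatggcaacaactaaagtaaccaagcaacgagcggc
CR31840: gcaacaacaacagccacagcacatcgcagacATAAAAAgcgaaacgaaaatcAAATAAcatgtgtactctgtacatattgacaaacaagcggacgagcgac
Hsromega: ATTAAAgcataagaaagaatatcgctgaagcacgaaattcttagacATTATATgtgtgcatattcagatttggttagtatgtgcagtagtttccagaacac
flam: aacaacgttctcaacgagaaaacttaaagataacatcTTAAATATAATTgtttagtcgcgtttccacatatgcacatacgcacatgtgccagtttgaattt
CR43334: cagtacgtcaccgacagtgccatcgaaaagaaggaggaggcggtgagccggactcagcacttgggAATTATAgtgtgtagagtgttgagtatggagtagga
CR43459: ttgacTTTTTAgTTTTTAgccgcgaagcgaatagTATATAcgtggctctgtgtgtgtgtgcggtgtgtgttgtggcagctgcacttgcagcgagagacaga
TS2: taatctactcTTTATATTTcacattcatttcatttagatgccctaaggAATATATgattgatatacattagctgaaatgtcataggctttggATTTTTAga

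These sequences differ widely in composition. The A+T content of the 101 bp was 78.2% at CR46036 and 72.3% at TS2, with 5 and 3 capitalised runs, and the longest run, of 15 bases, was at CR46036. It was 66.3% at Hsromega and at flam. It was 48.5% at CR43334 and 51.5% at CR43459, the lowest of the 8. At CR43334 the summit nearer to a TSS is shown, and its stronger IDR summit, farther upstream, had 52.5%.

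CG15269-eGFP occupied 134 of the 1607 distal lncRNA TSSs, 8.34% (interval 7.03 to 9.80%), and 128 of the 1518 genes. The background is 17.4% of all 23998 annotated TSSs. Protein-coding TSSs were occupied in 19.3% of cases (18.7 to 19.9%), and lncRNA TSSs within 1000 bp of a coding TSS in 70 of 457 cases, 15.3% (12.1 to 18.9%). The distal lncRNA TSSs thus lay below both, with intervals that did not overlap theirs. They lay above the DNA around them as a whole, since of all bases more than 1000 bp from a coding TSS (distal DNA) 3.40% lay within 500 bp of an IDR summit. The ratio was 2.45 (2.07 to 2.88). Distal TSSs of the annotated antisense RNA genes were occupied in 8 of 222 cases, 3.604% (1.57 to 6.98%). Protein-coding TSSs with no TSS of another coding gene within 1000 bp were occupied in 14.7% of cases (14.05 to 15.3%).

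In the list called on both replicates together, 447 distal lncRNA TSSs had a summit within 500 bp, 27.8% (25.6 to 30.1%). The background there is 35.0% of all annotated TSSs and 16.2% of distal bases, a ratio of 1.72. The remaining 1160 TSSs had no summit of that list within 500 bp. The 313 TSSs with a summit below the IDR threshold had a median signal of 61.7, between 34.7 and 154.2, where the weakest IDR peak had 154.4.

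**Figure D1:**
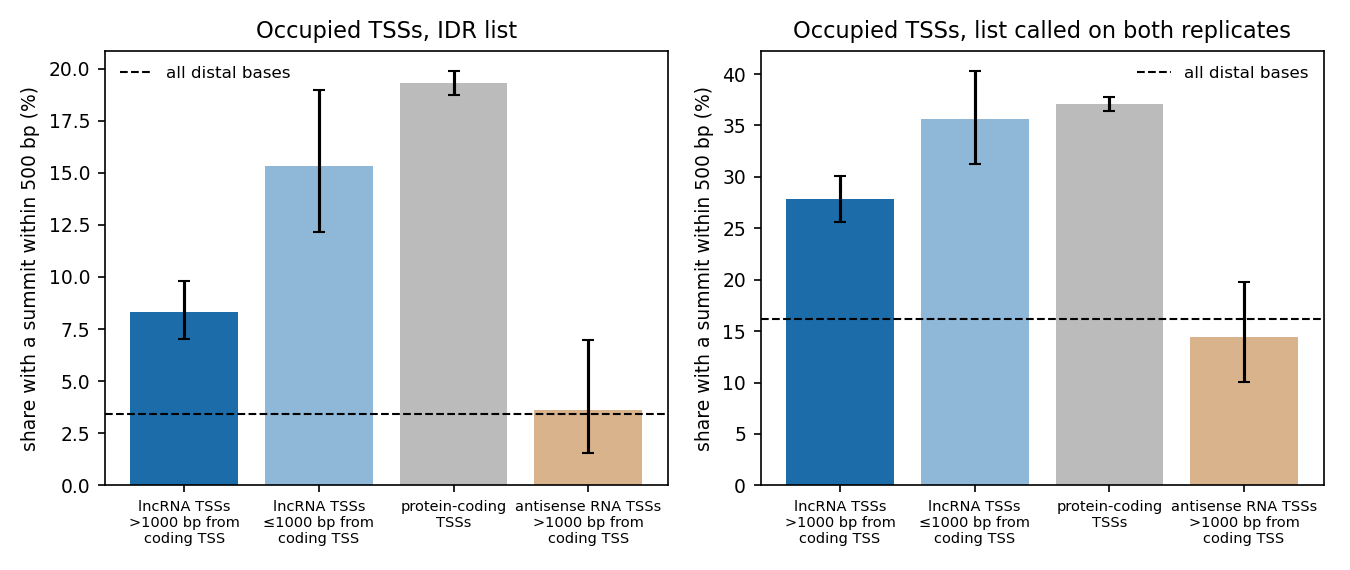
Share of TSSs (%, y axis) with a summit within 500 bp in the IDR list (left) and in the list called on both replicates together (right) for 4 kinds of TSS. Bars are shares, error bars exact 95% intervals, and the dashed line is the share of all distal bases. Distal lncRNA TSSs (8.34% and 27.8%) stand between that line and the protein-coding TSSs.

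The excess over distal DNA was spread over several kilobases and was not a narrow peak at the start site. Counting only distal DNA, IDR summits had a density of 87.95 per Mb within 250 bp of a distal lncRNA TSS and 85.6 per Mb from 250 to 500 bp. Density then fell with every step of distance, to 73.4 per Mb from 500 to 1000 bp, 61.3 from 1000 to 2000 bp, 47.97 from 2000 to 5000 bp and 30.9 beyond 20000 bp. Within 500 bp there were 127 summits in distal DNA, 86.8 per Mb (interval 72.4 to 103). From 1000 to 5000 bp there were 399, 51.7 per Mb (46.8 to 57.05). Against bases at that distance, of which 4.95% were within 500 bp of an IDR summit, the ratio for the TSSs was 1.69 (1.42 to 1.98) in place of 2.45. This comparison was added after the data were seen. Outside coding genes the density was 86.9 per Mb within 500 bp, 54.2 from 1000 to 5000 bp and 23.9 beyond 5000 bp. In introns it was 95.2, 61.5 and 51.2 per Mb. There the intervals from 1000 to 5000 bp (51.7 to 72.8) and beyond 5000 bp (49.2 to 53.4) overlap.

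**Figure D2:**
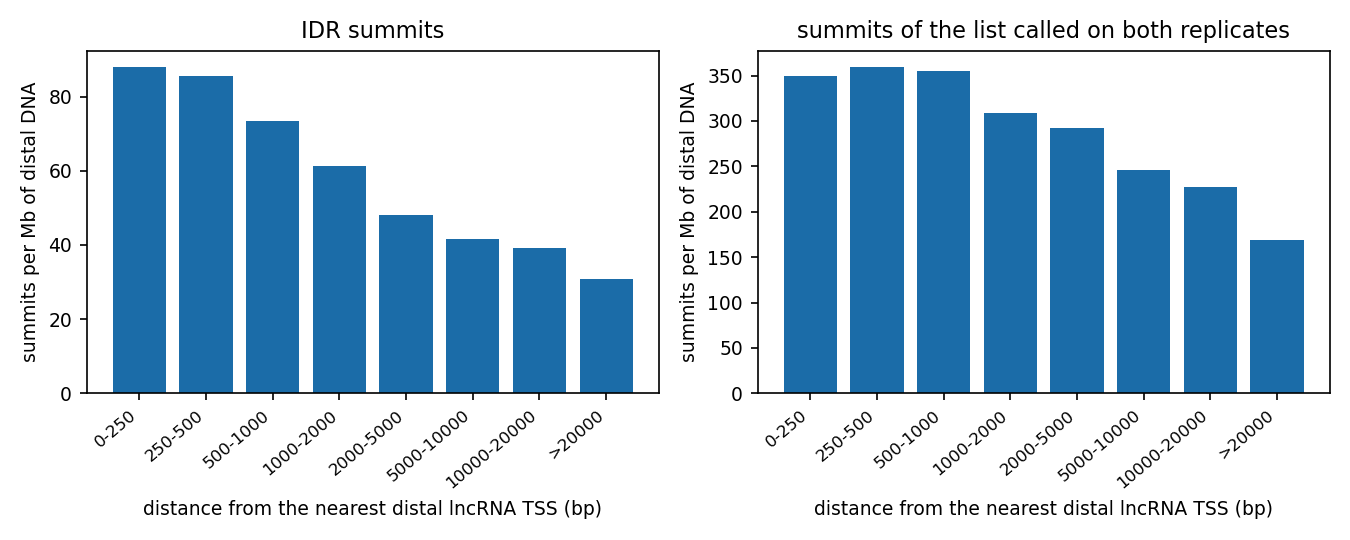
Number of summits per Mb of distal DNA (y axis) against distance from the nearest distal lncRNA TSS in bp (x axis, unequal steps), for the IDR list (left) and the list called on both replicates together (right). Bars are single counts divided by the bases in each step. The IDR density falls from 87.95 per Mb next to the TSS to 30.9 per Mb beyond 20000 bp.

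Occupied distal lncRNA TSSs had other peaks near them more often than unoccupied ones. Of the 134 occupied TSSs, 101 had a further IDR summit more than 500 and up to 5000 bp away, 75.4% (67.2 to 82.4%), with a mean of 2 such summits per TSS. Of the 1473 other distal lncRNA TSSs, 472 had one, 32.0% (29.7 to 34.5%), with a mean of 0.528. The nearest protein-coding TSS was itself occupied for 41 of the 134, 30.6% (22.9 to 39.1%), and for 186 of the 1473, 12.6% (11.0 to 14.4%). The occupied TSSs lay somewhat closer to coding TSSs, at a median of 4176.5 bp against 5223 bp. How far closeness to coding genes accounts for these differences was not tested. Occupied and other TSSs were split by having an IDR summit, and no like count around other distal IDR summits is given here. Whether such further peaks are particular to lncRNA promoters was therefore not tested. Neighbouring members can also count each other's peaks.

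Occupancy fell with distance from the nearest coding TSS, and so did the share of all DNA at the same distance. Between 1000 and 2000 bp, 33 of 281 lncRNA TSSs were occupied, 11.7% (8.22 to 16.1%), against 4.86% of bases. Between 5000 and 10000 bp it was 26 of 374, 6.95% (4.59 to 10.02%), against 3.74%. Beyond 20000 bp it was 8 of 168, 4.76% (2.08 to 9.17%), against 1.19%. The ratio lay between 1.86 and 4.01 over 5 classes of distance and had no steady order. At the limit itself, 7 of the 75 TSSs up to 250 bp beyond 1000 bp were occupied. These were CR34044, CR45632, CR43130, CR45325, CR44380, CR42657 and CR43704. Of the 84 lncRNA TSSs up to 250 bp inside it, which were left out, 6 were occupied (CR44977, CR43918, CR45668, CR44265, CR45364 and CR34046).

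Most distal lncRNA TSSs lay outside protein-coding genes. Of these 1194 TSSs 101 were occupied, 8.46% (6.94 to 10.2%), against 2.89% of distal bases outside coding genes. Of 388 TSSs in introns of coding genes 33 were occupied, 8.51% (5.93 to 11.7%), against 4.94% of distal intronic bases, a ratio of 1.72 in place of 2.93 outside. None of 25 TSSs in coding-gene exons was occupied (upper end of the interval 13.7%), where 0.676% of bases were near a summit. Among the intronic TSSs, 25 of 247 antisense to their host gene were occupied, 10.1% (6.66 to 14.6%), and 8 of 140 on the strand of the host, 5.71% (2.50 to 10.95%), with intervals that overlap widely.

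By arm, the share ran from 7.23% on 2L (31 of 429) over 7.57% on X (14 of 185), 7.57% on 3L (29 of 383) and 9.12% on 3R (34 of 373) to 11.4% on 2R (26 of 228). The intervals of these 5 arms overlap, from 4.20 to 12.4% on X and from 7.59 to 16.3% on 2R. On chromosome 4 none of 9 was occupied (upper end 33.6%). Of TSSs of spliced lncRNA genes 60 of 634 were occupied, 9.46% (7.30 to 12.01%), and of single-exon genes 74 of 973, 7.61% (6.02 to 9.45%), with intervals that overlap.

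Summits were less ordered around these TSSs than around coding ones. The 134 occupied TSSs were served by 131 distinct summits, 1.86% of the IDR list, of which 11 lay near more than 1 distal lncRNA TSS. Of the 131, 76 lay upstream of the nearest distal lncRNA TSS, 58.0% (49.1 to 66.6%), so the interval includes equal numbers on each side. With a 200 bp window, 37 of 55 lay upstream, 67.3% (53.3 to 79.3%), an interval above equal numbers. At protein-coding TSSs 77.5% (75.8 to 79.1%) were upstream. The fullest 100 bp step, from -200 to -100 bp, was the same for both and held 22 lncRNA summits. From 300 to 500 bp downstream lay 29 lncRNA summits, 12 and 17 per 100 bp step. Upstream, the steps at the same distance held similar numbers, 14 and 11. Of the 2557 coding summits only 89 lay from 300 to 500 bp downstream. Within 200 bp of the TSS were 55 of 131 lncRNA summits and 1694 of 2557 coding summits.

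**Figure D3:**
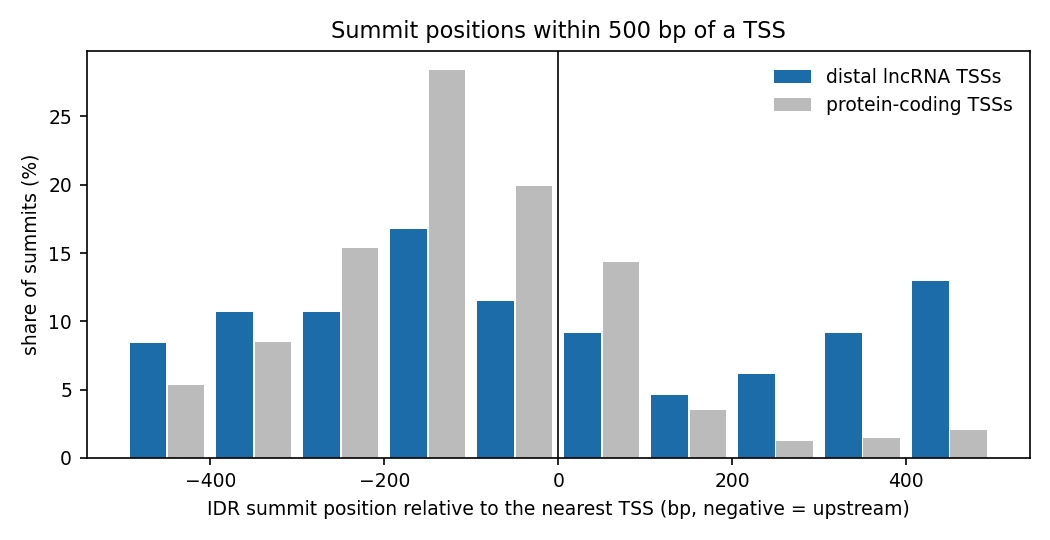
Share of IDR summits (%, y axis) by position relative to the nearest TSS in bp (x axis, 100 bp steps, negative is upstream) for 131 summits at distal lncRNA TSSs (blue) and 2557 at protein-coding TSSs (grey). Both are fullest from -200 to -100 bp, and the lncRNA summits are spread more evenly over the window.

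Signals of the IDR peaks at distal lncRNA TSSs ran from 154.6 to 3328.5, where the whole list ran from 154.4 to 8019.9. Their median signal was 313 (interval 249 to 380), with quartiles of 196 and 634. The median was 288 over all 7029 IDR peaks, 341 at protein-coding TSSs and 262 at the 3654 other distal summits, all inside that interval. Of the 131, 26 ranked among the 1000 strongest IDR peaks and 4 among the 100 strongest. At protein-coding TSSs these counts were 540 and 65 of 2557 summits, and at the other distal summits 327 and 23 of 3654. For the strongest ones the values of both replicates are given next, each as the signal of the replicate's own summit nearest to the IDR summit, within 200 bp. Among the 15 strongest, the ratio of replicate 2 to replicate 3 ran from 0.528 to 1.20.

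The strongest peak was at CR46036 (FBgn0267703), a single-exon lncRNA gene in an intron of osa, which codes for a subunit of the Brahma chromatin remodelling complex and is read from the other strand. The peak on 3R (17700323 to 17700812) had its summit 149 bp upstream of the TSS and ranked 46 of 7029. Its signal was 3328.5 with both replicates together, 1678 in replicate 2 and 1665 in replicate 3, which are nearly equal. The nearest protein-coding TSS lay 13670 bp away.

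The next was CR44339 (FBgn0265427) on 2R (12984973 to 12985465), between coding genes, whose nearest coding TSS, 4373 bp away, is that of the Polycomb group gene Psc. Its signal was 3275, with 1582 in replicate 2 and 1708 in replicate 3, and the summit lay 156 bp upstream. CR44810 on 2R (24329382 to 24329765), 4372 bp from slbo, which codes for a C/EBP transcription factor of border cell migration, also had its summit 156 bp upstream. Its signal was 1918, with 963.8 in replicate 2 and 963.5 in replicate 3, almost the same value.

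On X, CR44619 (12752136 to 12752570, signal 2759) had its summit 499 bp downstream of the TSS, just inside the window, with 1401 in replicate 2 and 1361 in replicate 3. A stronger IDR peak, ranked 6 with a signal of 6300, lay just outside the window at 533 bp upstream. It had 2557 in replicate 2 and 3593 in replicate 3. CR42657 (signal 1774, 945 and 837) lay 1123 bp from nej, which codes for the acetyltransferase CBP, and its summit lay 454 bp upstream. CR45541 (1718, 910 and 817) lay 1498 bp from the hexokinase gene Hex-A, with the summit 242 bp upstream. The window peaks of these 3 genes were slightly higher in replicate 2.

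On 2L, CR31840 (14023886 to 14024402) had a signal of 2267, 1121.5 and 1134.5 in the replicates, and its summit lay 7 bp from the TSS. CR45352, on the same strand nearby, had an uneven peak (1663.5), with 628 in replicate 2 and 1044 in replicate 3. CR44867 and CR44868 are single-exon genes antisense to the cell adhesion gene beat-Ib, in whose introns they lie. Their strongest peaks, of 1976 and 1777, lay 430 and 401 bp upstream of the respective TSS. The replicates had 991 and 1005 at CR44867, and 800 and 984 at CR44868. The peak of 1777 also had its summit within 500 bp downstream of the CR44867 TSS. CR44868 had a further IDR summit of 673 at 484 bp downstream, with 156 in replicate 2 and 526 in replicate 3.

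On 3L, CR44676 had a signal of 1625 (832 and 799 in the replicates) at 375 bp downstream. CR45251 had peaks on both sides of its TSS, of 1565 at 354 bp downstream (683 and 877) and of 1190 at 324 bp upstream (468 and 740). The microRNA precursors CR31044 and CR43626, described below, complete the 15 strongest peaks. Next came CR46265 (1095, at 348 bp downstream, with 609.6 and 488), which lies in an intron of the choline acetyltransferase gene ChAT. Weaker members among the 33 occupied intronic TSSs are given only as examples, chosen after their values were seen. They were CR43399 in ena, an actin regulator (signal 848.5), CR45808 in the kinase gene Hipk (808) and CR45888 in the glypican gene dlp (788). Further examples were CR44331 in the JNK phosphatase gene puc (750) and CR43904 in the ecdysone receptor gene EcR (155).

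Of the 34 distal lncRNA genes with a given name, other than CR and a number, 4 were occupied. These are Hsromega, flam, marge and TS2. By TSS this is 5 of 49, 10.2% (3.40 to 22.2%), beside 8.28% of the TSSs of genes named by number.

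Hsromega (FBgn0001234), transcribed strongly after heat shock into a nuclear RNA that organises speckles of RNA-binding proteins, had a peak on 3R (21296139 to 21296524) with a signal of 995.5, 431 in replicate 2 and 557 in replicate 3. The summit lay between its annotated distal TSSs, 210 bp downstream of one and 284 bp upstream of the other. A weaker IDR peak lay 1569 bp inside the gene (305, 185 and 114.5). The nearest coding TSS, 2129 bp away, is that of the neuropeptide receptor gene SIFaR.

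flam (FBgn0267704), the flamenco locus whose long transcript is cut into piRNAs that silence gypsy-type transposons in somatic cells of the ovary, had a peak on X (21631601 to 21631828) 176 bp upstream of its first TSS. Its signal was 504, with 258 in replicate 2 and 245 in replicate 3, ranking 1767 in the IDR list. The other 2 TSSs of flam had a pooled peak of only 45.3. A further IDR peak lay 1848 bp upstream (166.5, 100.5 and 53.6), next to the start of DIP1.

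TS2 (FBgn0284410) on 2L (3587415 to 3587597) had a summit 22 bp upstream of its TSS, with a signal of 198, 105 in replicate 2 and 102 in replicate 3. A stronger IDR peak lay 1067 bp upstream (607, 303 and 299). marge (FBgn0263380) on 3L (14977773 to 14978182), beside the Bearded family genes Ocho and Brd, had a summit 347 bp upstream, with a signal of 186. There the replicates differed, with 152.5 in replicate 3 and 55.0 in replicate 2, whose strongest summit in the window (80.9) lay 97 bp upstream.

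**Figure D4:**
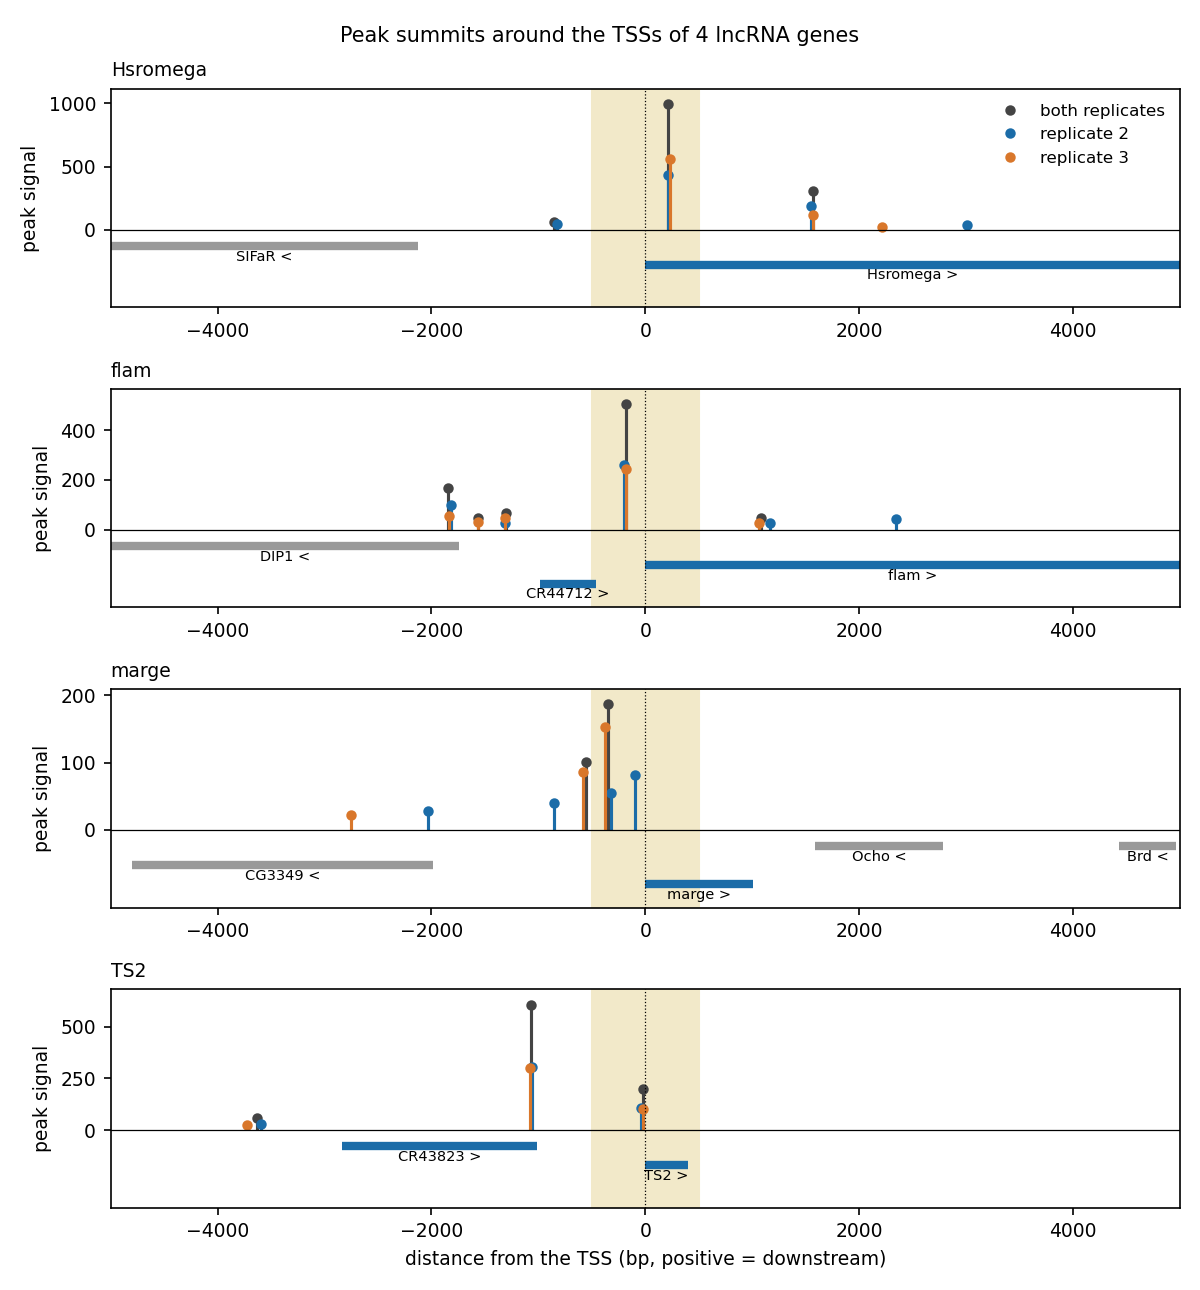
Peak signal (y axis, one scale per panel) against distance from the TSS in bp (x axis, positive is downstream) for all summits within 5000 bp of Hsromega, flam, marge and TS2, in the lists of both replicates together, replicate 2 and replicate 3. Shading marks 500 bp on either side of the TSS, blue lines are noncoding genes, grey lines coding genes, and > or < the direction of transcription relative to the named gene. At Hsromega and flam the summits of all 3 lists fall together next to the TSS.

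Other known lncRNA genes were not occupied. At roX2, one of the RNAs of the male dosage compensation complex, a pooled summit lay 118 bp from the TSS with a signal of 121, 66.2 in replicate 2 and 54.0 in replicate 3, below the weakest IDR peak. At its partner roX1 replicate 3 had a summit of 97.2 within 500 bp and replicate 2 had none, and the nearest pooled summit lay 2542 bp away. In the bithorax complex, 1 TSS each of iab4 and iab8 had pooled peaks of 115.4 and 106, and neither distal TSS of bxd had one, the nearest lying 1411 bp away. The nearest pooled summit was 12727 bp from cherub, an RNA of dividing neuroblasts, 4602 bp from CRG and 14317 bp from let7C, the precursor of let-7. At noe the pooled signal was 38.5. At yar the nearest pooled summit lay 6014 bp away, and replicate 3 alone had a summit of 65.6 within 500 bp.

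Among lncRNA genes that hold a microRNA gene on their strand, 7 of 31 were occupied, 22.6% (9.59 to 41.1%), beside 121 of 1484 genes that hold no small RNA gene, 8.15% (6.81 to 9.66%). The 31 genes had 53 distal TSSs and the 1484 had 1549, so the first had more windows per gene. By TSS, 10 of 53 were occupied, 18.9% (9.44 to 32.0%), beside 124 of 1549, 8.005% (6.70 to 9.47%). By gene and by TSS the intervals meet, and the counts are small. A further 8 of the 31 had a pooled summit only. None of 3 genes that hold snoRNAs had a summit in either list.

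The strongest of the microRNA precursors was CR31044 (FBgn0051044) on 3R (29214191 to 29214628), which holds mir-279 and mir-996, microRNAs of one seed family that act in neural development. Its peak ranked 48 of 7029, with a signal of 3243, 1771 in replicate 2 and 1478 in replicate 3, and the summit lay 113 bp upstream of the TSS. CR43626, which holds mir-282, had peaks 395 and 341 bp upstream of 2 of its TSSs. The first had a signal of 313, with 122 in replicate 2 and 193 in replicate 3, and the second had 1289, with 443 and 839, so both were higher in replicate 3. CR43650, which holds mir-8, a microRNA of growth control, had a signal of 435, with 227 and 216, at 110 bp upstream.

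Of the other microRNA precursors, CR43459, CR43334 and CR43651 had IDR peaks below the median signal of the list. CR43459, which holds mir-277 and mir-34, had a signal of 249, with 142 in replicate 2 and 103 in replicate 3, 81 bp downstream of the TSS. CR43334, the precursor of bantam, a microRNA that promotes growth and blocks cell death, had a peak of 219 at 473 bp upstream of its first TSS, with 152 in replicate 2 and 72.4 in replicate 3. A second peak, of 164, lay 14 bp downstream of its next TSS, with 83.3 and 83.9. CR43651, which holds mir-14, had 182, with 114.5 and 58.9, at 2 bp from the TSS. Hsromega, with its stronger peak given above, completes the 7 through mir-4951.

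Precursors without an IDR summit included several of tissue-specific microRNAs. CR45361, which holds the muscle microRNA mir-1, had a pooled signal of 36.3. CR44206, which holds mir-184, had 124, with 85.2 in replicate 2 and 53.0 in replicate 3, and CR43314, which holds mir-bft, had 154.1, just under the weakest IDR peak. CR45916 and CR45919, which hold mir-9a and the neuronal mir-124, had no pooled summit within 500 bp.

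One group of neighbouring lncRNA genes on 3R, chosen after its values were seen, was occupied throughout. CR45637, CR45638, CR45639, CR45640, CR45641 and CR45642 lie between 3423 and 9189 bp from mtSSB, and all 7 of their distal TSSs were occupied. CR45637, CR45638 and CR45639 share 1 summit of signal 348. The nearest summit of replicate 2 had 133 and that of replicate 3 had 27.3, while a replicate 3 summit farther off had 220. The others had 170, 198 and 251, all below the IDR median of 288, which the shared summit exceeded. They count as 7 of the 134 occupied TSSs.

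The replicates were compared through equal numbers of peaks, the 7029 strongest of each. Replicate 2 then occupied 132 distal lncRNA TSSs, 8.21%, where the background is 17.7% of all annotated TSSs, and replicate 3 occupied 128, 7.97%, where it is 18.1%. Both replicates occupied 99 of the same TSSs, which is 75% of those of replicate 2 and 77.3% of those of replicate 3. Over all annotated TSSs these shares were 78.7% and 77.0%. Of the 134 TSSs occupied in the IDR list, 98 were in both sets.

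Of the 131 IDR summits at these TSSs, 130 had a summit of each replicate within 200 bp, a matching chosen after the data were seen. IDR summits are those of highest signal in the list called on both replicates, so a match in each replicate was favoured beforehand. No match rate or correlation over all IDR summits is given here. Across the 130 matched sites of the same 2 libraries the Pearson r of the signals was 0.957 and the Spearman rho was 0.788. Replicate 2 was higher at 66 of them, and the median ratio of replicate 2 to 3 was 1.00. Ratios ran from 0.0851 at CR44526 (23.4 and 275) to 4.88 at CR45637, where the nearest replicate 3 summit had 27.3 and another, farther off, 220. The next highest ratio was 3.15, at CR45640. Matched summits of the 2 replicates were 23.5 bp apart at the median. At CR43411, CR44467, CR44587 and CR45632 a replicate had no summit inside the 500 bp window, yet had one within 200 bp of the IDR summit. At CR44467, for example, the IDR summit lay 498 bp downstream, and the replicates had 201 and 159.

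**Figure D5:**
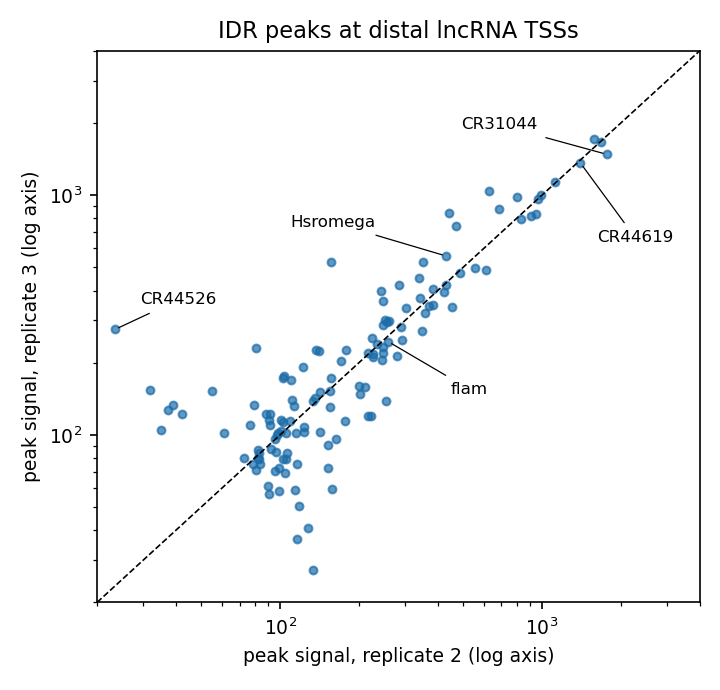
Peak signal in replicate 3 (y axis) against replicate 2 (x axis), both on log axes, at 130 IDR summits within 500 bp of distal lncRNA TSSs, each with the nearest summit of each replicate. The dashed line marks equal values. CR44619 (1401 and 1361) lies near the line, and CR44526 (23.4 and 275) is the farthest from it.

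A+T content was higher at the summits of these promoters than at their start sites. In the 51 bp at the 131 summits A+T content was 67.2% ± 11.6, SD over summits,, against 67.7% ± 10.4 at the 3654 other distal summits, a difference far below the spread over sites. It was 55.3% ± 10.6 at the TSSs of the 134 occupied members, 60.1% ± 10.3 at 1158 positions of distal lncRNA TSSs with no pooled summit, and 58.1% ± 11.7 over all distal DNA. Among the 69 of the 131 summits in the stronger part of the IDR list, those ranked 3514 or better, it was 70.6%. No like value for strong summits elsewhere is given here, so whether this is particular to lncRNA promoters was not tested.

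Short sequences were searched on both strands in 201 bp centred on the summits. TATCGATA, the DRE core of many housekeeping promoters, was at none of the 131 lncRNA summits (upper end of the interval 2.78%), at 4.77% of protein-coding summits, at 0.411% of the other distal summits and in 0.405% of 201 bp tiles of all distal DNA. GGTCACACT, the M1BP sequence, was at 2 of 131 (1.53%, interval 0.185 to 5.41%), at 2.31% of coding and 0.219% of other distal summits, and in 0.0896% of tiles. The TATA box core TATAAA was at 38.9% of lncRNA summits and 37.7% of other distal summits, against 21.7% of tiles, and the homeodomain core TAATTA at 17.6% and 19.05%, against 12.8%.

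GAGAGAG, the repeat bound by the GAGA factor, was at 7 of the 131 lncRNA summits, 5.34% (2.17 to 10.7%), at 4.46% of coding summits, at 1.86% (1.45 to 2.35%) of other distal summits and in 2.29% of tiles. Centred on the TSSs in place of the summits, it was in 14 of 134 windows of occupied members, 10.4% (5.83 to 16.9%), and in 30 of 1158 windows of members with no pooled summit, 2.59% (1.75 to 3.68%). Of the 9 sequences searched, GAGAGAG was the only one whose intervals at the TSSs did not overlap. Some windows overlapped each other in both sets, as at CR43334 among the occupied and CR43681 among the others, and were counted separately. CAGCTG, an E-box, was at 9.16% (4.82 to 15.5%) of lncRNA summits, at 5.56% of other distal summits and in 8.01% of tiles. CAGGTAG was at 1.53% against 1.18% and 1.03%, GATAAG at 8.40% against 11.3% and 7.97%, and AAAAAAAA at 16.8% against 17.9% and 10.9%. At the TSSs, CAGCTG was in 11.2% of windows of occupied members and 7.08% of those with no pooled summit. TATAAA was in 21.6% and 25.1%, and AAAAAAAA in 8.955% and 15.2%, so these were lower at occupied members. TATAAA and AAAAAAAA can share bases. A match is a description of the letters and does not show binding by any factor.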

How the data were processed

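The deposited files are narrowPeak lists on assembly dm6. Peaks were called against a control on replicate 2, on replicate 3 and on both together, and an IDR list was derived from these, per the text files deposited with each sample. For aligner, caller and threshold the sources used here give nothing. The signal per peak is the authors' value as deposited, and so is the -log10 q-value, which was 4.20 for every IDR peak and was not used. The IDR list holds exactly the 7029 peaks of highest signal among those called on both replicates. Chromatin was sheared to 200 to 800 bp per the labels.

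Ensembl release 115 gave the TSSs, and RefSeq's release 6 assembly gave the sequence. A summit is peak start plus deposited offset. A member's value is its strongest IDR or pooled summit within 500 bp. Replicate values are those of the replicate's summit nearest to the IDR summit, within 200 bp, or otherwise the strongest within 500 bp of the TSS. Bases of N were left out of base shares. Genes were named by rule: the 15 strongest distinct peaks, the strongest of each arm, genes with given names, small RNA precursors and those at the 1000 bp limit. Others are given as examples chosen after their values were seen. The members, gene lists and sequences searched were chosen with earlier results of these data known. The scripts that count occupied TSSs and bases were checked on simulated peak positions, which is no test of the shares. Alternatives were other windows, distances, peak lists and backgrounds. Python 3.11.15, numpy 2.4.6, pandas 2.3.3, scipy 1.17.1 and matplotlib 3.10.9 were used.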

Additional observations from a re-analysis of the deposited data

How the results depend on the processing

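Of 43 alternative values, 30 lay within the interval of the reported one. The share of occupied distal lncRNA TSSs was 3.42% within 200 bp and 13.6% within 1000 bp of the TSS, 6.36% more than 5000 bp from a coding TSS, 4.42% with the stronger 3514 IDR peaks, 10.45% by peak overlap of at least 1 bp and 27.8% with all pooled peaks. Without replicate 2 it was 7.97% and without replicate 3 it was 8.21%. The ratio to distal bases was above 1 in all 13 alternatives run, from 1.69 against bases 1000 to 5000 bp from a distal lncRNA TSS, chosen after seeing the data, to 2.90 with the stronger 3514 peaks, and was 1.72 with all pooled peaks. It was 2.44 and 2.45 without replicate 2 and 3. The share of summits upstream was 67.3% within 200 bp, 57.4% without replicate 2 and 53.0% without replicate 3. The median signal was 249 more than 5000 bp from a coding TSS. A+T content was 70.6% with the stronger 3514 peaks and 65.0% in 201 bp. A wider window or more peaks raises a share by construction, and the causes of the other shifts were not tested. No paired analysis was possible because the series has 1 group. Read depth and how much of each region can be read uniquely are unknown here, so absence of a summit is absence from these lists.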
